A study of Capra hircus with 2 samples.

Results

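NFKBIZ encodes IkB-zeta, a nuclear protein of the IkB family with ankyrin repeats, and its single row among 154 complete gene rows of the deposited table was described here over 10451 goat ovarian granulosa cells. The row was chosen by its symbol. In the table it stands between NXPE3 and ALCAM, and in the RefSeq annotation of assembly ARS1.2 its nearest protein-coding neighbours are NXPE3 and ZPLD1. NF-kB transcription factors are held in the cytoplasm by classical IkB proteins and enter the nucleus when cytokine or Toll-like receptors are engaged. IkB-zeta is itself made in response to such signals, binds NF-kB subunits in the nucleus and promotes or restrains the transcription of secondary response genes such as IL6 and LCN2. In the ovarian follicle, granulosa cells surround the oocyte, and inflammatory signalling is known to accompany ovulation.

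Single-cell RNA sequencing had been run on granulosa cells of Ji'ning grey goats, with 1 droplet library from goats of high fertility (more than 3 kids per birth) and 1 library from goats of low fertility (fewer than 2 kids per birth). Transcripts were counted as unique molecular identifiers (UMIs), each standing for 1 captured mRNA molecule. The labels name no genotype, treatment, age or number of goats behind either library. Granulosa and theca markers are not among the rows analysed here, so the labelled cell type could not be checked against them, and no cell was given a type. The high fertility library held 7106 cells with a median of 7214.5 UMIs, and the low fertility library 3345 cells with a median of 11080 UMIs; 27 cell barcodes occurred in both. As each group is 1 library without replicates, no test between groups was possible, and a difference between libraries cannot be told apart from one between goats, dissections or preparations. All intervals below are 95% intervals for counting error only, and they do not cover the spread between cells, which for NFKBIZ was larger than counting error.

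NFKBIZ was among the more abundant of the 154 genes, the seventh in order of level in each library. In all, 9953 NFKBIZ UMIs were counted in the high against 5399 in the low fertility library. Scaled to 1000000 UMIs of all genes (CPM), its level was 156 CPM (exact Poisson interval 153 to 159) in the high against 118 CPM (115 to 121) in the low fertility library. The ratio high over low was 1.32 (exact binomial interval 1.28 to 1.37). An excess of 25% or more was reached by 32.6% of the 43 other genes of at least 10 CPM, and 7 of the 43 had a higher ratio than NFKBIZ, so the gene did not stand apart from the rest in this comparison. The 18 genes of at least 50 CPM in both libraries had a median ratio of 1.12, or 0.16 on the log2 scale, and relative to that shift NFKBIZ stood at 1.18. On the deposited natural log scale the mean over cells was 0.672 with an SD of 0.736 in the high against 0.526 with an SD of 0.634 in the low fertility library.

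Most cells held few NFKBIZ molecules and a small share held many. The median cell had 1 UMI in each library, while the highest cell had 28 UMIs in the high against 40 UMIs in the low fertility library. No UMI was found in 45.9% of the high fertility cells (exact binomial interval 44.8% to 47.1%) and in 49.7% of the low fertility cells (48.0% to 51.4%). Exactly 1 UMI was found in 22.5% and 17.7% of the cells, and 5 to 9 UMIs in 7.11% and 8.46%. Cells with 10 or more made up 0.873% of the high against 2.12% of the low fertility library. These shares depend on depth, which was greater in the low fertility library. Per cell, the median level was 75.7 CPM in the high against 29.5 CPM in the low fertility library, the 90th percentile 467 and 330 CPM, and the 99th percentile 1214 and 900 CPM.

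To set the depth aside, the share of cells expected to keep a UMI was calculated after drawing 5000 UMIs from every cell of that depth or more. This left out 1812 cells of the high against 564 of the low fertility library. At that depth 44.2% of the high against 34.8% of the low fertility cells would hold at least 1 NFKBIZ UMI, against 54.1% and 50.3% of all cells without thinning. At least 3 UMIs would be held by 8.71% and 5.06%, and at least 5 UMIs by 1.82% and 0.749%. At equal depth the high fertility library was thus ahead at each of these bounds. The level of free RNA in the droplets could not be set beside these shares, since no cell type that lacks NFKBIZ could be named.

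**Figure D1:**
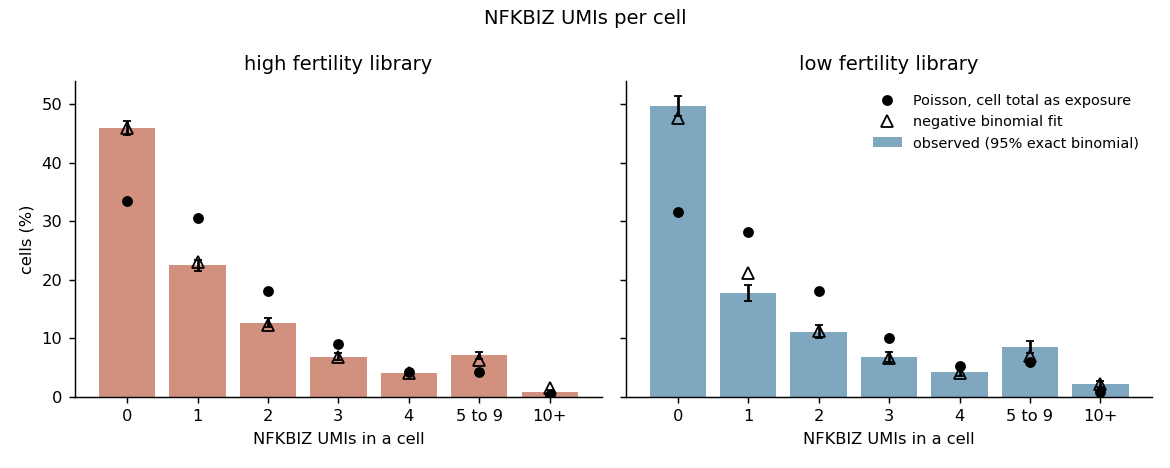
Percent of cells (vertical axis) by number of NFKBIZ UMIs in the cell (horizontal axis) in each library; bars are observed shares with exact binomial intervals, dots the Poisson expectation with the cell's total as exposure, triangles a fitted negative binomial. Cells without a UMI made up 45.9% and 49.7%, above the Poisson expectation of 33.5% and 31.7%.

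NFKBIZ varied between cells far more than sampling of molecules alone would give. If every cell of a library held the gene at the same share of its RNA, the counts would follow a Poisson distribution with the cell's total as exposure. On that expectation 33.5% of the high against 31.7% of the low fertility cells would lack a UMI, 2381 cells and 1059 cells, against 3264 and 1662 observed. At the other end, 10 or more UMIs were expected in 25.2 and 25.7 cells and found in 62 and 71. The squared deviations summed to 2.57 times the Poisson value in the high against 3.20 times in the low fertility library. Expressed as phi, the extra variance in units of the squared mean, the spread was 0.688 and 0.765. Phi is 0 for a gene held at the same share in every cell, and a phi of 1 corresponds to an SD between cells as large as the mean.

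A negative binomial distribution, which lets the level vary between cells along a single smooth curve, came closer to the counts than Poisson. Fitted by maximum likelihood with the cell's total as exposure, its phi was 0.959 in the high against 1.13 in the low fertility library. For the high fertility library it gave 3267 cells without a UMI, beside 3264 observed, but 107 cells with 10 or more UMIs, beside 62. For the low fertility library it gave 1595 cells without a UMI, beside 1662 observed, 710 cells with 1 UMI, beside 592, and 72.2 cells with 10 or more, beside 71. The high fertility library thus held fewer cells with 10 or more UMIs than the curve. The low fertility library held more cells without an NFKBIZ UMI. At 5 to 9 UMIs each library held more cells than the curve, 505 beside 446 (high) and 283 beside 234 (low).

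Among genes of at least 100 CPM, a bound added to the planned one of 20 CPM, NFKBIZ had the widest spread by phi or nearly so. By phi it ranked 10 of 31 genes of at least 20 CPM in the high against 5 of 28 in the low fertility library, where the median gene had 0.429 and 0.249. Of the genes of at least 100 CPM, 9 in the high against 8 in the low fertility library, NFKBIZ ranked second and first; the gene above it in the high fertility library was ENSCHIG00000012599, whose values fall into a low and a high mode. Comparators near its level, chosen after their values were seen, had a lower phi. SON, a splicing cofactor at 162 CPM in the high against 179 CPM in the low fertility library, had a phi of 0.22 and 0.25, and CCT8, a subunit of the cytosolic chaperonin at 192 and 178 CPM, a phi of 0.18 and 0.17. MRPL39, of the mitochondrial ribosome, had a phi of 0.12 and 0.22. BBX, at 123 and 95.9 CPM, was nearer to NFKBIZ, with a phi of 0.27 and 0.46.

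**Figure D2:**
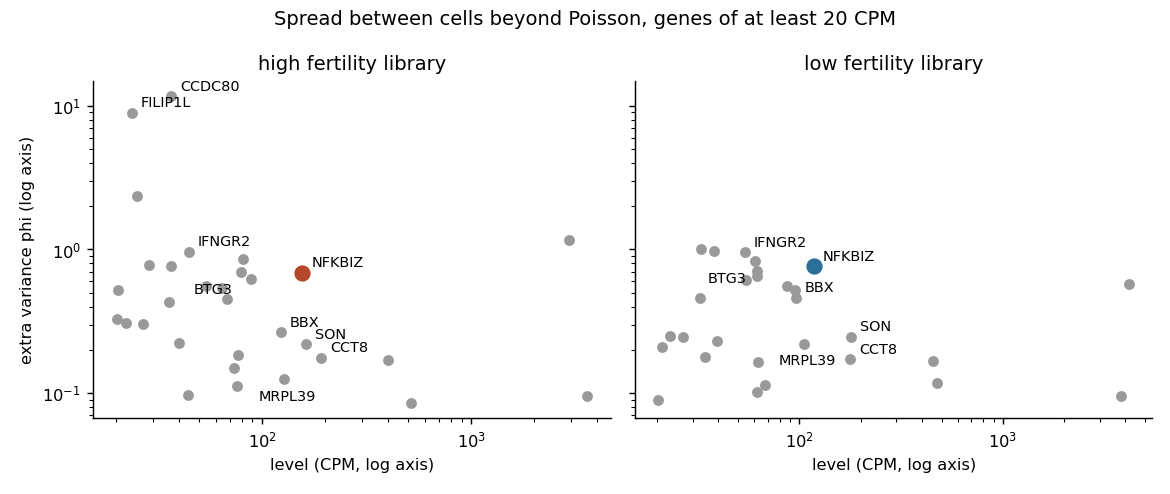
Extra variance phi (vertical log axis) against level in CPM (horizontal log axis) for the 31 and 28 genes of at least 20 CPM in each library; each point is 1 gene and the coloured point is NFKBIZ. NFKBIZ lies at 0.688 and 0.765, above SON, CCT8 and MRPL39 of like level.

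By phi, the spread was widest in shallow cells. Relative to the Poisson value, the squared deviations were instead larger at 30000 UMIs or more than below 2500 UMIs. They were 3.74 against 2.42 times that value in the high fertility library, and 4.08 against 2.69 times in the low. In cells below 2500 UMIs phi was 2.74 in the high against 5.60 in the low fertility library, from 7500 to 10000 UMIs it was 0.953 and 1.72, and at 30000 UMIs or more 0.462 and 0.390. Over the 8 depth bins phi of NFKBIZ was lower in every deeper bin than in the shallowest one, in each library. Phi of SON was also higher in the shallowest than in the deepest bin, 0.460 and 0.297 in the high fertility library and 1.02 and 0.227 in the low, with lower values throughout. PROS1, which encodes the anticoagulant protein S, went from 2.29 to 0.452 and from 3.04 to 0.335, so the course was not limited to NFKBIZ. Without cells above 15000 UMIs, phi of NFKBIZ over all remaining cells was 0.986 in the high against 1.24 in the low fertility library.

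The level itself also varied with depth, and not in the same way in the libraries. In the high fertility library NFKBIZ stood at 262 CPM (exact Poisson interval 227 to 302) in cells below 2500 UMIs, at 169, 163 and 165 CPM in the next bins up to 10000 UMIs, at 156 CPM from 10000 to 15000, at 138 and 146 CPM in the bins up to 30000, and at 132 CPM (123 to 141) above. The shallowest cells were therefore 1.99 times as high as the deepest. In the low fertility library the values were 152 CPM (119 to 192) in the shallowest bin, 122, 113 and 121 CPM up to 10000 UMIs, 107 CPM from 10000 to 15000, 105 and 110 CPM up to 30000, and 143 CPM (136 to 151) above. There the level was lowest at middle depth and the shallowest and deepest cells did not differ beyond counting error.

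Because of the deepest cells, the direction between the libraries was not the same at every depth. In 7 of 8 depth bins NFKBIZ was higher in the high fertility library, with ratios from 1.32 to 1.72 and intervals above 1 in each of the 7. At 30000 UMIs or more, in 149 high and 225 low fertility cells, the ratio was 0.919 (0.843 to 1.00), so the excess of the high fertility library was not seen there. Without these cells the ratio over the whole of the libraries was 1.44 (1.38 to 1.49). Whether deep droplets hold more than 1 cell was not tested, as no doublet caller was run on 154 genes.

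**Figure D3:**
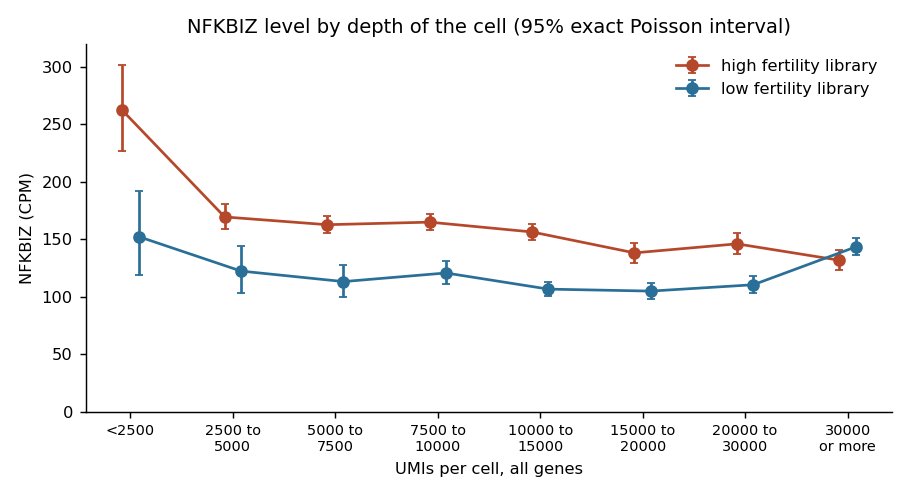
NFKBIZ level in CPM (vertical axis) in 8 bins of UMIs per cell (horizontal axis) for each library; points are summed UMIs of all cells of the bin and bars exact Poisson intervals. The high fertility library lies above the low in 7 bins, and in the deepest bin it stands at 132 against 143 CPM.

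The genes whose level followed depth most like NFKBIZ were SON, GBE1, ENSCHIG00000012599, TRMT10C and CLDND1. Likeness was Pearson's correlation of log2(CPM + 1), centred per library, over 8 depth bins in 2 libraries (16 points that share cells, totals and the bins), among 25 other genes of at least 20 CPM in both. It was 0.791 for SON, 0.634 for GBE1, which encodes the glycogen branching enzyme, 0.613 for ENSCHIG00000012599, 0.612 for TRMT10C, a subunit of mitochondrial RNase P, and 0.480 for CLDND1, a claudin domain protein. For 4 of the 5 it was greater in the high fertility library: 0.970 there and 0.521 in the low for SON, 0.921 and 0.00664 for GBE1, 0.945 and -0.156 for TRMT10C, and 0.727 and 0.0832 for CLDND1. ENSCHIG00000012599 went the other way, with 0.556 in the high fertility library and 0.741 in the low.

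Cells rich in NFKBIZ were then compared with the other cells of the same depth. Cells of a library were sorted into 20 bins of equal number by total UMIs, and the 20% of a bin with the highest share of NFKBIZ were called rich, provided they held a UMI of it. This gave 1420 rich cells in the high against 649 in the low fertility library, with a median of 4 NFKBIZ UMIs in each. Their median depth was 7212 UMIs against 7214.5 in the other cells of the high, and 11109 against 11048.5 in the low fertility library. By this choice NFKBIZ stood at 477 against 76.9 CPM and at 346 against 61.1 CPM, and the rich cells held 60.4% and 58.7% of its UMIs. For every other gene the UMIs in rich cells were divided by those expected from the other cells of the bin; 75 genes had at least 20 expected UMIs in each library, and the other 78 were not compared.

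More of the 75 genes were lower than higher in NFKBIZ-rich cells. The median ratio was 0.912 in the high against 0.916 in the low fertility library (-0.13 on the log2 scale in each), with 52 of 75 genes below 1 in each, and 53 genes lay on the same side of 1 in both libraries. An excess of 25% or more was reached by 12% of the genes in the high against 8% in the low fertility library, and a deficit of 20% or more by 21.3% in each. In both libraries together 5 genes were higher by this rule (6.67%) and 7 lower (9.33%). Relative to the median ratio of each library 8 were higher and 3 lower, the latter being CHODL, ROBO2 and ENSCHIG00000022648. No gene passed the rule in opposite directions.

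SAMSN1, IFNGR2, TIAM1, C21orf91 and ENSCHIG00000021896 were higher in NFKBIZ-rich cells of both libraries. SAMSN1, an adaptor gene of blood cells, stood at 34.8 CPM in the rich and 10.7 CPM in the other cells of the high fertility library, a ratio at matched depth of 3.23 (2.94 to 3.55). In the low fertility library it stood at 23.7 and 12.4 CPM, a ratio of 1.94 (1.69 to 2.22). A SAMSN1 UMI was found in 17.3% of the rich cells of the high fertility library, where 5.94% were expected from the other cells, and in 19.1% against 9.03% in the low. The excess was thus one of cells as well as of molecules.

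IFNGR2, the signalling chain of the interferon gamma receptor, was the most abundant of the 5. Its level was 74.8 CPM in rich and 37.2 CPM in other cells of the high fertility library, a ratio of 2.01 (1.88 to 2.14), and 76.7 and 48.1 CPM in the low, a ratio of 1.60 (1.48 to 1.72). It was detected in 36.8% of the rich cells of the high fertility library, where 23.0% were expected, and in 50.5% against 34.6% in the low. Between cells without NFKBIZ, cells with some and rich cells the level rose in order in each library: relative to all cells of the same depth IFNGR2 stood at 0.673, 0.963 and 1.67 in the high, and at 0.742, 1.02 and 1.43 in the low fertility library. SAMSN1 followed the same order, at 0.438, 1.04 and 2.24 in the high against 0.720, 0.996 and 1.65 in the low.

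TIAM1, a guanine nucleotide exchange factor for the GTPase Rac1, had nearly the same ratio in each library, 1.70 (1.40 to 2.04) and 1.69 (1.31 to 2.14), on 115 and 68 UMIs in rich cells. C21orf91 had ratios of 1.54 (1.33 to 1.76) and 1.32 (1.06 to 1.62). ENSCHIG00000021896, for which the table gives no symbol, was just past the rule at 1.32 (1.03 to 1.67) in the high fertility library; in the low it had 58 UMIs where 46.4 were expected, an excess not distinguishable from counting error.

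ENSCHIG00000022648, CHODL, ROBO2, COL8A1, CMSS1, COX17 and SOD1 were lower in NFKBIZ-rich cells of both libraries. ENSCHIG00000022648, which has no symbol in the table, stood at 15.8 against 27.5 CPM in the high fertility library, a ratio of 0.574 (0.497 to 0.660), and at 11.6 against 21.3 CPM in the low, a ratio of 0.550 (0.450 to 0.665). CMSS1, which encodes a ribosomal small subunit homolog protein, was the most abundant of the 7 in the high fertility library, with a ratio of 0.732 (0.684 to 0.782), and 0.730 (0.674 to 0.790) in the low. It was detected in 34.7% of the rich cells where 44.1% were expected, and in 42.1% where 52.3% were expected. For these genes the libraries gave nearly the same value.

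The copper-handling genes were also lower. COX17, which carries copper to cytochrome c oxidase, had ratios of 0.757 (0.694 to 0.823) in the high against 0.767 (0.712 to 0.827) in the low fertility library. SOD1, a superoxide dismutase of the cytosol that holds copper and zinc, had 0.761 (0.642 to 0.896) and 0.789 (0.684 to 0.906). Relative to the median ratio of each library, COX17 stood at 0.830 and 0.838 and SOD1 at 0.835 and 0.862. Neither passed the rule on that scale. ROBO2, a receptor for Slit guidance proteins, stood at 0.525 (0.366 to 0.730) and 0.692 (0.456 to 1.01), and CHODL, a membrane lectin, at 0.657 (0.463 to 0.906) and 0.446 (0.214 to 0.820), the latter on 10 UMIs. When all high fertility cells with an NFKBIZ UMI were set against those with none, CHODL was at 1.56 (1.35 to 1.80), so its direction there depends on how the cells are chosen. Relative to all cells of the same depth it stood at 0.885 in cells without NFKBIZ, 1.21 in cells with some and 0.705 in rich cells. COL8A1, a network-forming collagen gene, stood at 0.689 (0.550 to 0.851) and 0.751 (0.499 to 1.09), but in the low fertility library it was detected in more rich cells than expected, 3.24% against 2.34%. Its direction there differs between molecules and cells, and 1 cell outside the rich cells held 22 of its UMIs. The direction of COL8A1 in that library also differed between settings, as given at the end. In the low fertility library the intervals of ROBO2 and COL8A1 included 1, so their deficits there were not distinguishable from counting error.

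**Figure D4:**
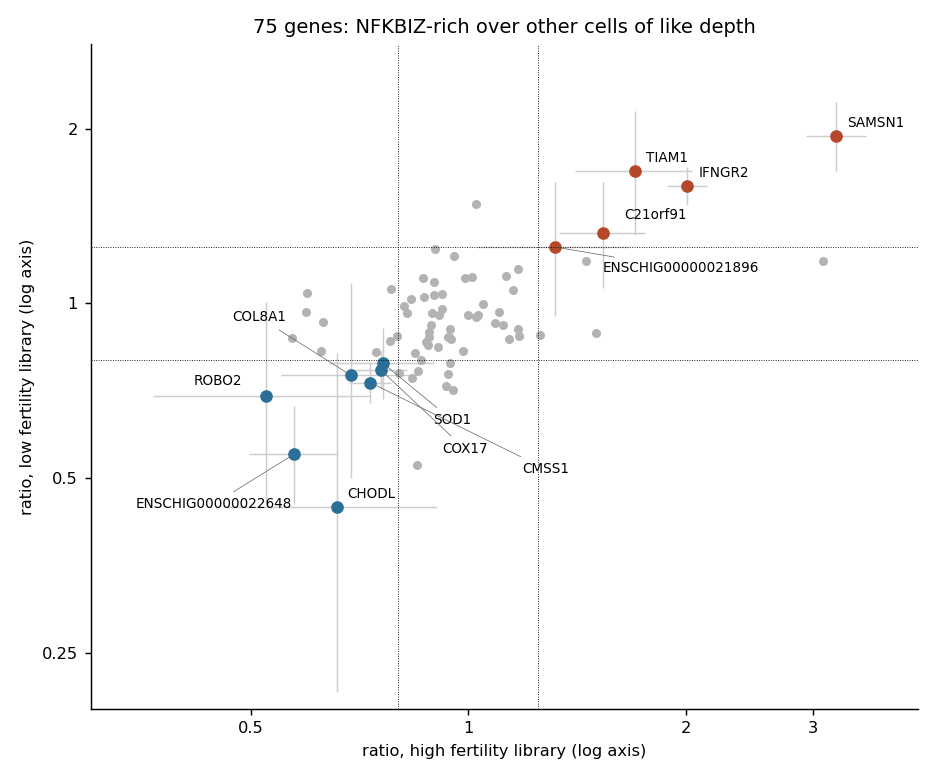
Ratio of each of 75 genes in NFKBIZ-rich over other cells of the same depth, in the high (horizontal, log axis) and low fertility library (vertical, log axis); grey bars are exact Poisson intervals of the named genes and dotted lines mark the rule. The 5 genes higher in both lie at the upper right, led by SAMSN1 at 3.23 and 1.94, and the 7 lower in both at the lower left.

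Other genes passed the rule in 1 library only, 4 higher and 9 lower in the high against 1 higher and 9 lower in the low fertility library; the differences between libraries were not tested. ENSCHIG00000015902, named after its values were seen, was 3.10 times (2.66 to 3.59) as high in the rich cells of the high but 1.18 times (0.953 to 1.45) in those of the low fertility library. ALCAM, a cell adhesion molecule and the next gene after NFKBIZ in the table, had 1.46 (1.28 to 1.66) and 1.18 (0.928 to 1.48). On the other side NXPE3 had 0.596 (0.463 to 0.754) and 0.968 (0.746 to 1.24). The neighbours in the table thus went in opposite directions in the high fertility library.

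Of the gene lists of the pathway, few members are among the 154 genes. Of 42 genes of NF-kB signalling only GSK3B, a kinase that also acts on this pathway, was measured beside NFKBIZ; it had ratios of 0.956 (0.856 to 1.06) and 1.21 (1.06 to 1.37) and did not pass the rule. Of 20 cytokine receptors and target genes of IkB-zeta, IFNGR2 passed, while IFNAR1 and IL10RB, chains of the interferon alpha and interleukin 10 receptors, had too few UMIs to be compared. Their ratios were 0.690 (0.394 to 1.12) and 1.17 (0.696 to 1.86) for IFNAR1, and 0.710 (0.340 to 1.31) and 1.39 for IL10RB, on 18 UMIs where 12.9 were expected. IFNAR1 and IL10RB were therefore not distinguishable between rich and other cells at this depth.

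None of the 3 measured genes of 19 in the immediate early and growth response list passed the rule in both libraries. BTG3, an anti-proliferative gene, had 0.944 (0.884 to 1.01) and 0.904 (0.827 to 0.986), and HSPA13, a chaperone of the HSP70 family, 1.13 (0.888 to 1.41) and 1.12 (0.781 to 1.54). ADAMTS1, a protease that cleaves versican around ovulation, had 1.02 (0.877 to 1.19) and 1.48 (1.18 to 1.85). In the low fertility library 35 of its 80 UMIs in rich cells came from 1 cell, and 4.01% of the rich cells held a UMI where 3.28% were expected. With 6.67% of all compared genes higher and 9.33% lower in both libraries, a count of 0 of 3 is near the share over all genes and says nothing particular of the list.

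Markers of other cell types were compared in the same way. Of 16 leukocyte markers SAMSN1, CD96, CD80 and CD200 were measured, and their summed level was 52.4 CPM in rich and 28.8 CPM in other cells of the high, and 34.8 and 27.3 CPM of the low fertility library. The sum was carried by SAMSN1 and by CD200, a ligand that restrains myeloid cells, whose own ratios were 0.937 (0.814 to 1.07) and 0.757 (0.614 to 0.923). CD80, a costimulatory ligand, had 11 UMIs in the rich cells of the high fertility library where 1.73 were expected, and 3 where 1.86 were expected in the low. CD96, a receptor of T and natural killer cells, had 3 and 2 UMIs where 4.37 and 4.05 were expected. Markers such as PTPRC were not analysed here, so a leukocyte share of the rich cells was not tested.

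The other lists had fewer members. Of 8 stroma markers COL8A1 and CCDC80 were measured, with a summed level of 39.0 CPM in rich and 48.1 CPM in other cells of the high, and 13.1 and 17.2 CPM of the low fertility library. CCDC80, a matrix-associated protein, had 0.850 (0.770 to 0.937) and 0.764 (0.616 to 0.937). JAM2, the single endothelial marker of 7, had 3 UMIs in rich cells of the high against 0 of the low fertility library, and UPK1B, the single surface epithelium marker of 4, stood at 0.238 and 0.218 CPM in rich cells. Neither list reached the level of 1 CPM.

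SAMSN1 and IFNGR2 were examined together, as the pair with the highest ratios in NFKBIZ-rich cells of the high fertility library among the 5 genes. Cells with a UMI of neither gene, 5017 in the high against 1988 in the low fertility library, held NFKBIZ at 135 CPM (132 to 139) and 95.2 CPM (91.1 to 99.3). Cells with IFNGR2 but no SAMSN1 stood at 169 and 136 CPM, at matched depth 1.26 times (1.22 to 1.31) and 1.22 times (1.17 to 1.27) the level of the former. Cells with SAMSN1 but no IFNGR2, 258 and 110 in number, stood at 254 CPM (233 to 277) and 151 CPM (128 to 177), 1.88 times (1.72 to 2.05) and 1.69 times (1.43 to 1.99). Cells with both stood at 272 CPM (254 to 291) and 150 CPM (139 to 163), 2.03 times (1.90 to 2.18) and 1.44 times (1.33 to 1.56).

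Each gene went with more NFKBIZ in the absence of a UMI of the other. The pair was chosen for its ratios in NFKBIZ-rich cells of these same libraries, so this direction is not separate evidence. In the high fertility library cells with both did not differ beyond counting error from cells with SAMSN1 alone. A NFKBIZ UMI was found in 84% of the cells with both, against 47.2% of those with neither, and in 73.0% against 40.8% in the low fertility library; cells with both were deeper, with a median of 8194 against 6741 UMIs and of 14166.5 against 9796.5. Without any cell that held a SAMSN1 UMI, IFNGR2 still had ratios of 1.85 (1.71 to 1.99) and 1.48 (1.35 to 1.62) in NFKBIZ-rich cells. Without cells with an IFNGR2 UMI, SAMSN1 had ratios of 3.33 (2.88 to 3.83) and 2.63 (2.07 to 3.29). Without the cells that held a SAMSN1 UMI, phi of NFKBIZ was 0.718 and 0.769; like cells in which no SAMSN1 molecule was captured remain in these values.

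**Figure D5:**
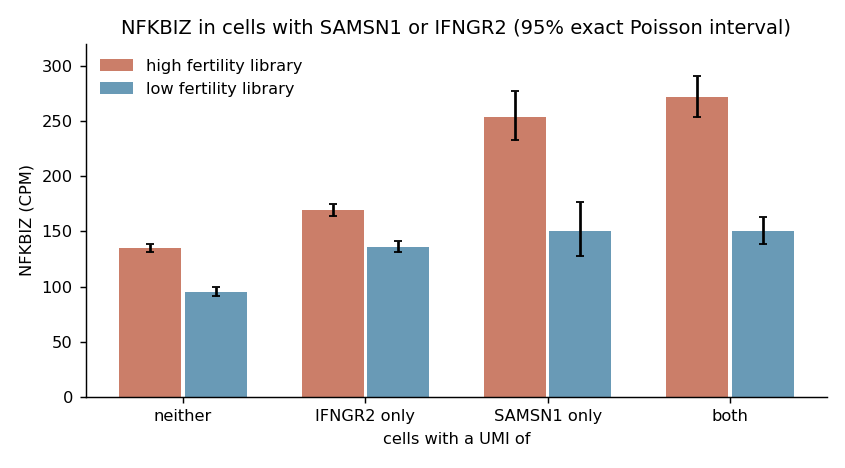
NFKBIZ level in CPM (vertical axis, from 0) in cells with a UMI of neither SAMSN1 nor IFNGR2, of 1 of them or of both (horizontal axis), per library; bars are summed UMIs of the cells of a class and whiskers exact Poisson intervals. NFKBIZ is lowest in cells with neither, at 135 and 95.2 CPM, and reaches 272 CPM in high fertility cells with both.

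The ratios of SAMSN1, IFNGR2, TIAM1 and C21orf91 in NFKBIZ-rich cells were larger in shallow cells. The level of SAMSN1 itself differed with depth. In the high fertility library it was 69.3 CPM in the shallowest depth bin and 0.963 CPM in the deepest, on 6 UMIs. In the low fertility library it was 55.0 CPM in the shallowest bin and 3.45 CPM in the deepest, on 37 UMIs. Whether differences in depth left within bins affect the SAMSN1 ratios was not tested. Among cells below the median depth of their library, SAMSN1 had ratios of 4.58 (4.03 to 5.18) and 3.72 (3.10 to 4.41) in NFKBIZ-rich cells. IFNGR2 had 2.68 (2.40 to 2.98) in the high fertility library and an interval of 2.21 to 2.83 in the low. TIAM1 had 2.70 and 3.38, and C21orf91 2.24 and 2.35. At or above the median depth SAMSN1 was at 2.31 (1.99 to 2.68) in the high but at 1.02 (0.806 to 1.28) in the low fertility library. There IFNGR2 was the only one of 69 compared genes higher by the rule in both libraries, while 6 were lower. IFNGR2 had ratios of 1.72 (1.58 to 1.86) and 1.31 (1.19 to 1.45). TIAM1 was at 1.29 (0.994 to 1.65) and 1.14 (0.784 to 1.60), and C21orf91 at 1.24 (1.02 to 1.49) and 1.03 (0.772 to 1.36). When all cells with an NFKBIZ UMI were set against those with none, SAMSN1 was at 0.947 (0.861 to 1.04) in the low fertility library and 3.09 (2.88 to 3.32) in the high. The value of the low fertility library differs in direction from the order of SAMSN1 over cells without NFKBIZ, with some and rich in it, given above. That order was taken relative to all cells of the same depth, and the present ratio relative to the cells without NFKBIZ alone; the cause of the difference was not tested.

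The lower genes had no common course with depth. CMSS1 was at 0.662 and 0.653 below the median depth and at 0.731 and 0.794 above it. ENSCHIG00000022648 was at 0.650 and 0.338 below and at 0.580 and 0.634 above. Both were lower in NFKBIZ-rich cells in each library and on each side of the median depth. In the high fertility library COL8A1 was at 1.20 (0.654 to 2.01) below and 0.657 (0.514 to 0.828) above, and CHODL at 1.05 (0.624 to 1.66) and 0.582 (0.365 to 0.881); the intervals of both included 1 in shallow cells. ROBO2 was at 0.359 (0.164 to 0.682) and 0.237 (0.0490 to 0.694) below the median depth. Above it ROBO2 was at 0.557 (0.353 to 0.836) and 0.782 (0.478 to 1.21).

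NFKBIZ differed little between the modes of ENSCHIG00000012599, the gene that splits the cells by a value of 2.5 on the deposited log scale. In the high fertility library it stood at 142 CPM (138 to 147) in the 3870 cells below and 168 CPM (164 to 173) in the 3236 cells above, at matched depth a ratio of 1.15 (1.12 to 1.18). In the low fertility library it stood at 113 CPM (107 to 119) in 1100 and 120 CPM (117 to 124) in 2245 cells, a ratio of 1.05 (1.02 to 1.08). Within each mode NFKBIZ was higher in the high fertility library. IFNGR2 passed the rule in NFKBIZ-rich cells of each mode, with 2.08 in each library below the bound and 1.69 and 1.33 above it. CMSS1 and ENSCHIG00000022648 were lower by the rule in each mode. CHODL in the high fertility library was at 0.976 (0.604 to 1.49) below the bound and 0.986 (0.665 to 1.41) above it. Its deficit over all cells of that library was thus not seen within either mode.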

How the data were processed

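Droplet libraries (10x Genomics 3' chemistry, per the labels' protocols) were processed with Cell Ranger 2.2.0, per the submitters' processing notes; build, annotation, cell filter and normalizing program were each not given in the sources used here. The authors deposited values on a natural log scale, which equal the natural log of 1 plus 10000 times a gene's UMIs over the cell's total. Each cell was given the smallest whole total at which all of its values were whole UMIs; 100% of 177610 values above 0 came out whole within 0.0001. The table used here holds 154 complete rows and 1 incomplete row, which was left out; other genes were not analysed here. Because the values are logs and the design assumed them or counts, summed UMIs and CPM were used for levels and ratios. Count distributions entered through the Poisson expectations, the exact intervals, phi and the negative binomial fit of NFKBIZ. No count model was used to test a gene. All deposited cells were kept and no doublets were called.

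The members and lists were chosen with earlier results of these data known. Named genes were those 25% or more above or 20% or more below expectation in both libraries with at least 20 expected UMIs, the measured members of the fixed lists, and the 5 genes most alike over depth. Phi was a moment estimate with the cell's total as exposure. Depth bins were bounded at 2500, 5000, 7500, 10000, 15000, 20000 and 30000 UMIs. Expected UMIs were taken as fixed in the intervals of ratios, so these are somewhat narrow. A count of 0 allows a level of 0.047 CPM (high fertility) or 0.0657 CPM (low fertility), taken as 3 UMIs. The calculations were tested on simulated data and run with Python 3.11.15, numpy 2.4.6 and scipy 1.17.1.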

Additional observations from a re-analysis of the deposited data

How the results depend on the processing

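Settings by SAMSN1, IFNGR2, the median depth, 30000 UMIs and the modes were chosen after seeing the data; why values differ between settings was not tested. The ratio of NFKBIZ high over low was 1.43 as a mean over cells, 1.45 without cells above 15000 UMIs, 1.44 without those above 30000 UMIs and 1.18 relative to the median of abundant genes. Phi was 0.759 and 0.614 (high, low) with the rate of each depth bin, 0.986 and 1.24 without cells above 15000 UMIs, 0.686 and 0.763 without those below 2500 UMIs, 0.636 and 0.739 without the 1% of cells highest in NFKBIZ, and 0.718 and 0.769 without SAMSN1 cells. Thinned to 2000 UMIs, 24.1% and 17.7% of the cells would hold a UMI. With 20 depth bins the shallowest cells were 1.90 and 1.06 times as high as the deepest, beside 1.99 and 1.06. The 5 genes higher and 7 lower, of 75 compared, became 3 and 3 of 103 with any UMI against none. They became 3 and 2 of 75 at 1.5-fold, and 11 and 22 of 148 with no minimum of expected UMIs. Relative to the median ratio they became 8 and 3 of 75, and without IFNGR2 cells 3 and 3 of 58. The higher genes became 1 of 69 at or above the median depth, and the lower ones 11 of 60 without cells above 15000 UMIs. Cells below 2.5 of ENSCHIG00000012599 alone gave 2 and 2 of 45. The genes were not always the same ones, and a gene below the minimum of expected UMIs in a setting was not compared there. Of the 5 higher and 7 lower genes, any UMI against none kept 2 (TIAM1 and C21orf91) and 1 (ENSCHIG00000022648). Leaving out IFNGR2 cells also kept 2 and 1, but IFNGR2 itself could not be kept, as none of its UMIs remained. TIAM1 was then at 1.40 (high) and 1.84 (low) but had too few expected UMIs to be compared. The top 10% of cells kept 4 and 3, and leaving out cells above 15000 UMIs kept 3 and 4. All 5 and 7 were kept with no minimum of expected UMIs. Of 306 ratios recomputed for the 12 named genes, 204 stayed within the interval of the reported one, 88 left it in the same direction and 14 lay on the other side of 1. These were, in the low fertility library, SAMSN1 (0.947), ROBO2 (1.02) and COL8A1 (1.22) with any UMI against none, COL8A1 with the top 33% of cells (1.16), without cells above 15000 UMIs (2.08) and in cells below 2.5 of ENSCHIG00000012599 (2.06), COX17 in those cells (1.01) and ENSCHIG00000021896 without IFNGR2 cells (0.990). In the high fertility library they were CHODL with the top 33% (1.09), with any UMI (1.56) and below the median depth (1.05), COL8A1 below the median depth (1.20), and ENSCHIG00000021896 without IFNGR2 cells (0.935) and below 2.5 of ENSCHIG00000012599 (0.975). No paired analysis was possible because the groups hold a single library each.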
